A study of Homo sapiens with 4 samples.

Results

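The 34 genes described here act in homologous recombination and in the DNA repair and checkpoint pathways joined to it. They were chosen by name, and all 34 of 34 symbols were found among the 26506 genes of the deposited tables. RNA sequencing had been performed on 2 ovarian cancer cell lines, HeyC2 and SKOV3. In each line, 1 library came from cells transfected with the pCMV6/TET1 plasmid (genotype label: TET1 overexpressed) and 1 from cells given the empty plasmid (genotype label: Wild-type), 4 libraries in all. TET1 is an enzyme that oxidises methylated cytosine, and in this design it was driven from a viral CMV promoter. Both arms were transfected with lipofectamine and then grown under Geneticin, so the control cells had passed through the same selection. The sources used here do not say whether the selected cells were a pool or a clone. With 1 library per group, no difference below has a replicate check, no p-value was computed, and each contrast compares a pair of libraries.

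Homologous recombination repairs a broken chromosome by copying the intact sister chromatid. The broken ends are first trimmed to single strands (MRE11A, RAD50, NBN, RBBP8, EXO1), BRCA1, PALB2 and BRCA2 then prepare the single strand for pairing with the sister, and a helicase finally unwinds the joined molecules. The Fanconi anaemia proteins open crosslinked DNA for the same pathway, and the kinases ATM, ATR, CHEK1 and CHEK2 hold the cell cycle while repair goes on. Many of these genes are known to be transcribed mainly around the start of S phase, partly through E2F factors. Loss of recombination is well known in ovarian cancer, where it goes with sensitivity to platinum and PARP inhibitors.

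Levels are given as FPKM, that is, fragments per kilobase of transcript and of library size, which allows genes to be compared per length. The TET1 columns had been multiplied by a constant that set GAPDH to its control value, and this constant (3.23 in HeyC2 and 1.35 in SKOV3) was divided out. A change is the difference of log2(FPKM + 1), TET1 minus control, less the median of all genes tested in that line, which was 0.06 in HeyC2 and 0.19 in SKOV3. This scale understates the change of low genes. Each fold increase or decrease printed below is that of this change, so it is not the ratio of the FPKM values beside it. Only genes averaging 1 FPKM or more over the libraries of a line were tested there, 11894 in HeyC2 and 13013 in SKOV3, and a gene was called when it differed at least 1.5-fold from the all-gene median. The standard error (SE) given beside a change is that of the log2 ratio of FPKM without the pseudocount, from the estimated number of fragments. It covers counting error only, and for low genes it is larger than the counting error of the change. The libraries held an estimated 6660000 to 7300000 fragments. Low values matched whole fragments only loosely in this estimate (mean cosine 0.388 to 0.53, with 1 an exact match). The fragments of a gene were computed with 1 annotated transcript length, so fragment numbers and SE are approximate. Within a line, the levels of all genes correlated with a Spearman rho of 0.947 (HeyC2) and 0.906 (SKOV3), and between lines with 0.747 to 0.772, a description over 11134 genes. TET1 itself was at 0.20 FPKM in the HeyC2 control and 0.52 in HeyC2 TET1, and at 0.43 and 1.80 in SKOV3. The higher value was in the TET1 library of both lines. In HeyC2 the change of TET1 was 0.28, within 1.5-fold and from a level under the filter, so overexpression there rests on the label, and so do the HeyC2 contrast and its comparison with SKOV3. In SKOV3 the change of TET1 was 0.78, but from low levels. TET1 passed the filter there only through the TET1 library, so the filter fixed its direction. The epithelial keratins KRT8 and KRT18 lay at or above 192.85 FPKM in all 4 libraries, and PAX8, a factor of the ovarian and Muellerian lineage, at or above 74.59. EPCAM and CDH1 were at most 0.38 FPKM in HeyC2, and WT1 and MUC16 at most 0.53 in any library.

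Lower members were frequent in SKOV3 and few in HeyC2. In TET1-reprogrammed SKOV3, 17 of the 34 members were lower, 1 was higher and 16 were within 1.5-fold, with a median change of -0.57. Of all genes tested in SKOV3, 18.2% were lower and 20.7% higher by the same rule, and the middle 50% of changes ran from -0.44 to 0.48. In HeyC2, 32 members passed the filter, of which 2 were lower, 3 were higher and 27 were within 1.5-fold, with a median of -0.02. Of the 3 higher, EXO1 passed the filter only through its HeyC2 TET1 library, so the filter fixed its direction. There, 9.17% of all genes tested were lower and 12.5% higher, with quartiles at -0.28 and 0.30. At least 2-fold lower were 7 of 34 members in SKOV3 (6.49% of all genes tested) and 1 of 32 in HeyC2 (2.82%). The counts depend on the reference. On the values as deposited and without the all-gene median, 4 members were lower and 6 higher in SKOV3. In HeyC2, where all 34 passed the filter on that scale, 0 were lower and 32 higher. There the constant raises the TET1 value of every gene 3.23-fold, so these counts do not single out the members. With the deposited scale kept but the median subtracted, 17 were lower and 0 higher in SKOV3, and 5 were lower and 2 higher in HeyC2. The shares of all genes called on the deposited scale are not given here. On an upper-quartile scale, 11 members were lower and 1 higher in SKOV3 (median -0.39), beside 11.9% and 28.0% of all genes tested, and the calls of BRCA1, XRCC2, FANCA, FANCG, FANCL and FANCD2 were lost. A pseudocount of 5 left 9 lower and 0 higher (median -0.41).

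Of the 32 members tested in both lines, 26 had a lower change in SKOV3 than in HeyC2, against 53.7% of the 11134 genes tested in both. Only RAD51AP1 and FANCG, 2 of these 32 members, were lower in both lines (2.54% of all genes), and on the upper-quartile scale 1 of them, RAD51AP1. Across the 32 members, the changes in the 2 lines correlated with a Spearman rho of 0.23, beside 0.15 over all 11134 genes, and the points of a line share their pair of libraries. The difference between the lines was not tested, since neither line has a second library per group.

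**Figure D1:**
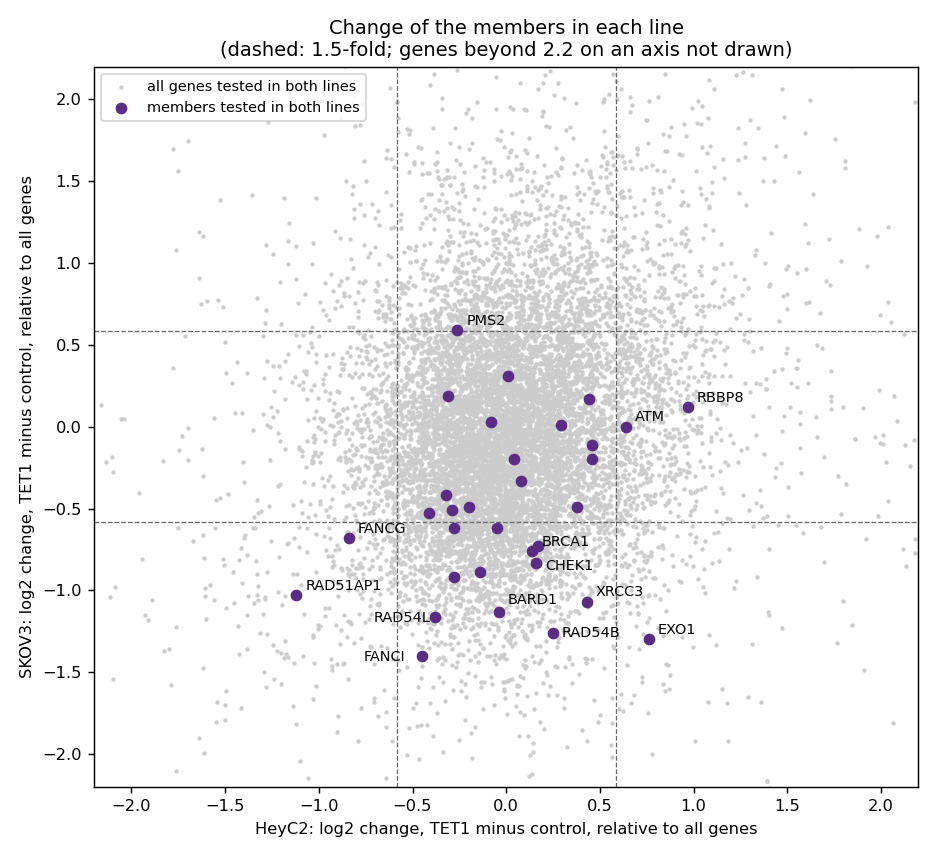
Change of each gene in HeyC2 (horizontal axis) and SKOV3 (vertical axis), as the log2 change of TET1 minus control relative to all genes; grey points are the 11134 genes tested in both lines and purple points the 32 members tested in both. Most members lie below 0 on the SKOV3 axis while spreading to both sides of 0 on the HeyC2 axis, and only RAD51AP1 and FANCG lie beyond the lower dashed 1.5-fold lines of both.

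The promoters of these genes were read from RefSeq (GRCh38.p14) as windows from 250 bases before to 50 after the start, and 30 of the 34 members had one. FANCI, NBN, RAD54B and WRN had none. The motif bound by E2F factors was searched on both strands in 4 forms. These were the form TTCCCGC, a variant with a central G written TTCGCGC, the related form TTGCCGC and the further form TTGGCGC. Such an E2F-type motif was present in 19 of 30 member windows (63.3%). The share was 15.3% over 27305 RefSeq windows, 25.4% over the 9741 windows of genes tested in SKOV3 and 28.5% over the 7778 of these with at least 20 CpG. The CHR-type motif of mitotic genes, written TTTGAA or in its other form TTCGAA, was in 10% of member windows and 15.1% of the windows of genes tested in SKOV3, and the CCAAT box was in 53.3% and 43.5%. No E2F-type word holds a whole CHR or CCAAT word, although matches can overlap in part. The 100 bases before the start are shown for 5 members that were called lower in SKOV3 and carry the E2F-type motif there, in capitals, and for ATM and RAD50, which lay at the all-gene median in SKOV3 and have no such motif in their window.
RAD54L: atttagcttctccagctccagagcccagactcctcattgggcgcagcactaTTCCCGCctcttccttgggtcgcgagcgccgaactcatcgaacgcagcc
BRCA1: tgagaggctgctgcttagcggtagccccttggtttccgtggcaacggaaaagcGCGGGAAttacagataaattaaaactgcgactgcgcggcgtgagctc
RAD51AP1: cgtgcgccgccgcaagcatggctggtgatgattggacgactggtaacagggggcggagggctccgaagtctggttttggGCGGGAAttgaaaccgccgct
BLM: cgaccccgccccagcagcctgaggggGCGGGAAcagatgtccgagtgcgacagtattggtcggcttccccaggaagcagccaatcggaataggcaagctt
FANCG: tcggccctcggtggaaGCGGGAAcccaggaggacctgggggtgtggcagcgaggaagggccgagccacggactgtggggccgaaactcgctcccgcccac
ATM: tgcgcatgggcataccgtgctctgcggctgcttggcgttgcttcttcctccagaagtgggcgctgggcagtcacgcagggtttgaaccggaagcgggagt
RAD50: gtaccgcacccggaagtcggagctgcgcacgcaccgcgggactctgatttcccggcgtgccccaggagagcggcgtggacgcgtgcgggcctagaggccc

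Each sequence is printed 5′ to 3′ on the strand of its gene, on GRCh38.p14: RAD54L at chr1:46247588-46247687 (plus strand), BRCA1 at chr17:43125365-43125464 (minus), RAD51AP1 at chr12:4538790-4538889 (plus) and BLM at chr15:90717246-90717345 (plus). FANCG lies at chr9:35079943-35080042 (minus), ATM at chr11:108222967-108223066 (plus) and RAD50 at chr5:132556877-132556976 (plus). The capitals of RAD54L read TTCCCGC on the gene's own strand, and those of the other 4 are its reverse complement GCGGGAA. The first capital letter lay 49 bases before the start in RAD54L, 47 in BRCA1, 21 in RAD51AP1, 74 in BLM and 84 in FANCG.

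In SKOV3, 12 of the 19 members with the motif were lower (63.2%, median -0.68), against 3 of the 11 without it (27.3%, median -0.20). The 3 without the motif were BRCA2, FANCM and CHEK1. The difference rests on the scale: on the upper-quartile scale 6 of 19 with the motif (31.6%) and 3 of 11 without it (27.3%) were lower, since all 6 calls lost there belong to members with the motif. The medians were then -0.51 and -0.02. Over all genes tested in SKOV3 that have a window, 22.6% were lower with the motif and 17.2% without it. On the upper-quartile scale these shares were 15.2% and 11.2%. In HeyC2, 2 of 18 members with the motif were lower (median -0.17), and 0 of 10 without it (median 0.22). Over all genes tested in HeyC2, 8.06% with the motif and 9.62% without it were lower. PMS2 (0.59), FANCF (0.19) and MSH6 (0.17) carry the motif and lay above the all-gene median in SKOV3. A motif match describes letters in a window, and no binding was measured.

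**Figure D2:**
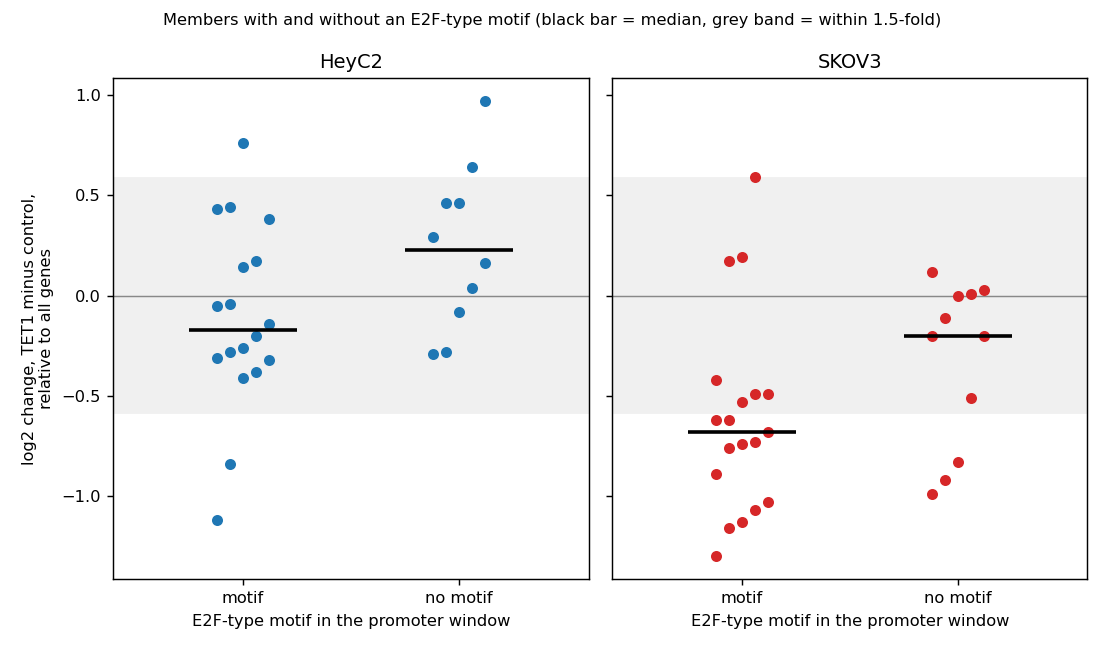
Log2 change of TET1 minus control relative to all genes (vertical axis) for members with and without an E2F-type motif in the promoter window, in HeyC2 and SKOV3; each point is 1 member, black bars are medians and the grey band is the range within 1.5-fold. In SKOV3 the members with the motif centre on -0.68 and those without on -0.20, with overlapping ranges.

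Strand exchange and its mediators were the largest group, with 11 members, and they held 8 of the 17 members called lower in SKOV3. There 8 of the 11 were lower, 5 of them at least 2-fold, none was higher, and the median change was -0.99. On the upper-quartile scale 6 of the 11 were lower, with BRCA1 and XRCC2 lost. In HeyC2, 9 were tested, 1 was lower, none was higher, and the median was -0.04. The summed level of the 11 went from 41.9 to 39.2 FPKM in HeyC2 and from 149.0 to 94.0 FPKM in SKOV3.

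BRCA1 (chr17:41196312-41322262, 23 exons; gene coordinates here and below are on GRCh37) brings the repair proteins to the break. In SKOV3 it stood at 21.20 FPKM in the control and 13.97 after TET1, a 1.69-fold decrease relative to all genes (log2 change -0.76, SE 0.07). In HeyC2 it stood at 2.56 and 3.08 FPKM, a change of 0.14 (SE 0.17), within 1.5-fold. BARD1 (chr2:215590370-215674407), the ubiquitin ligase partner of BRCA1, was at 7.27 and 3.32 FPKM in SKOV3, a 2.19-fold decrease (-1.13, SE 0.16), and at 1.85 and 1.88 in HeyC2 (-0.04). Both partners were thus called lower in SKOV3 TET1 and lay near the all-gene median in HeyC2. The call of BRCA1 was narrowly lost on the upper-quartile scale (-0.58) and without the all-gene median (-0.57), and that of BARD1 was kept (-0.95 and -0.94). Their SKOV3 levels stayed above those of HeyC2 in every library.

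BRCA2 (chr13:32889223-32974405, 27 exons) acts on single-stranded DNA before strand exchange and had the lowest mean control level of the members, 1.94 FPKM. In SKOV3 it went from 2.90 to 1.24 FPKM, from an estimated 249 and 97 fragments. Relative to all genes, on the log2(FPKM + 1) scale, this was a 1.99-fold decrease (-0.99, SE 0.17). In HeyC2 it stood at 0.98 and 0.83 FPKM, below the filter, so no call was made. PALB2, which bridges BRCA1 and BRCA2, was within 1.5-fold in both lines, at 4.75 and 4.71 FPKM in SKOV3 (-0.20) and 3.62 and 3.94 in HeyC2 (0.04). BRCA1 and BRCA2, on either side of this bridge, were both past 1.5-fold in SKOV3 and PALB2 was not, a difference that was not tested.

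RAD51C, RAD51D, XRCC2 and XRCC3 are related proteins that help strand exchange to proceed. RAD51C (chr17:56769934-56812972) was among the 3 members with the highest mean control level, 25.04 FPKM. It was at 38.64 and 30.78 FPKM in SKOV3 (-0.51, SE 0.09) and at 11.45 and 9.61 in HeyC2 (-0.29, SE 0.15), within 1.5-fold in both. XRCC3 (chr14:104163946-104181841), its partner in the CX3 complex, was at 21.10 and 10.99 FPKM in SKOV3, a 2.11-fold decrease (-1.07, SE 0.13). In HeyC2, XRCC3 was at 6.01 and 8.81 FPKM, a change of 0.43 in the other direction that stayed within 1.5-fold. XRCC2 (chr7:152341861-152373278) was at 3.56 and 2.12 FPKM in SKOV3 (-0.74, SE 0.22) and at 0.62 and 0.81 in HeyC2, under the filter. RAD51D changed by -0.42 in SKOV3 and -0.32 in HeyC2. Of these 4 genes, XRCC2 and XRCC3 were thus called lower in SKOV3, and none was called in HeyC2.

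RAD51AP1 (chr12:4647964-4669213), which stimulates strand invasion, was the member with the lowest change in HeyC2. It went from 6.46 to 2.57 FPKM there, a 2.18-fold decrease (-1.12, SE 0.29), and 2.1% of genes tested lay lower. In SKOV3 it went from 13.29 to 6.98 FPKM, a 2.05-fold decrease (-1.03, SE 0.19). RAD51AP1 was also the only member on the short arm of chromosome 12, where in HeyC2 95 of the 154 genes tested were lower (61.7%, median -0.72). Of these 154 genes, 35 had a lower change than RAD51AP1. In SKOV3, 25 of 146 genes of the arm were lower (17.1%, median 0.03). The part of the arm in the HeyC2 value of RAD51AP1 was not tested.

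RAD54L and RAD54B are motor proteins that move along DNA during strand exchange. RAD54L (chr1:46712133-46744152) was at 15.12 and 7.26 FPKM in SKOV3, a 2.23-fold decrease (-1.16, SE 0.15), and at 2.73 and 1.98 in HeyC2 (-0.38, SE 0.30). RAD54B (chr8:95384188-95487343) was at 11.86 and 5.13 FPKM in SKOV3, a 2.40-fold decrease (-1.26, SE 0.17), and at 2.37 and 3.17 in HeyC2 (0.25, SE 0.27). Both translocases were more than 2-fold lower in SKOV3 TET1, and neither passed 1.5-fold in HeyC2.

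**Figure D3:**
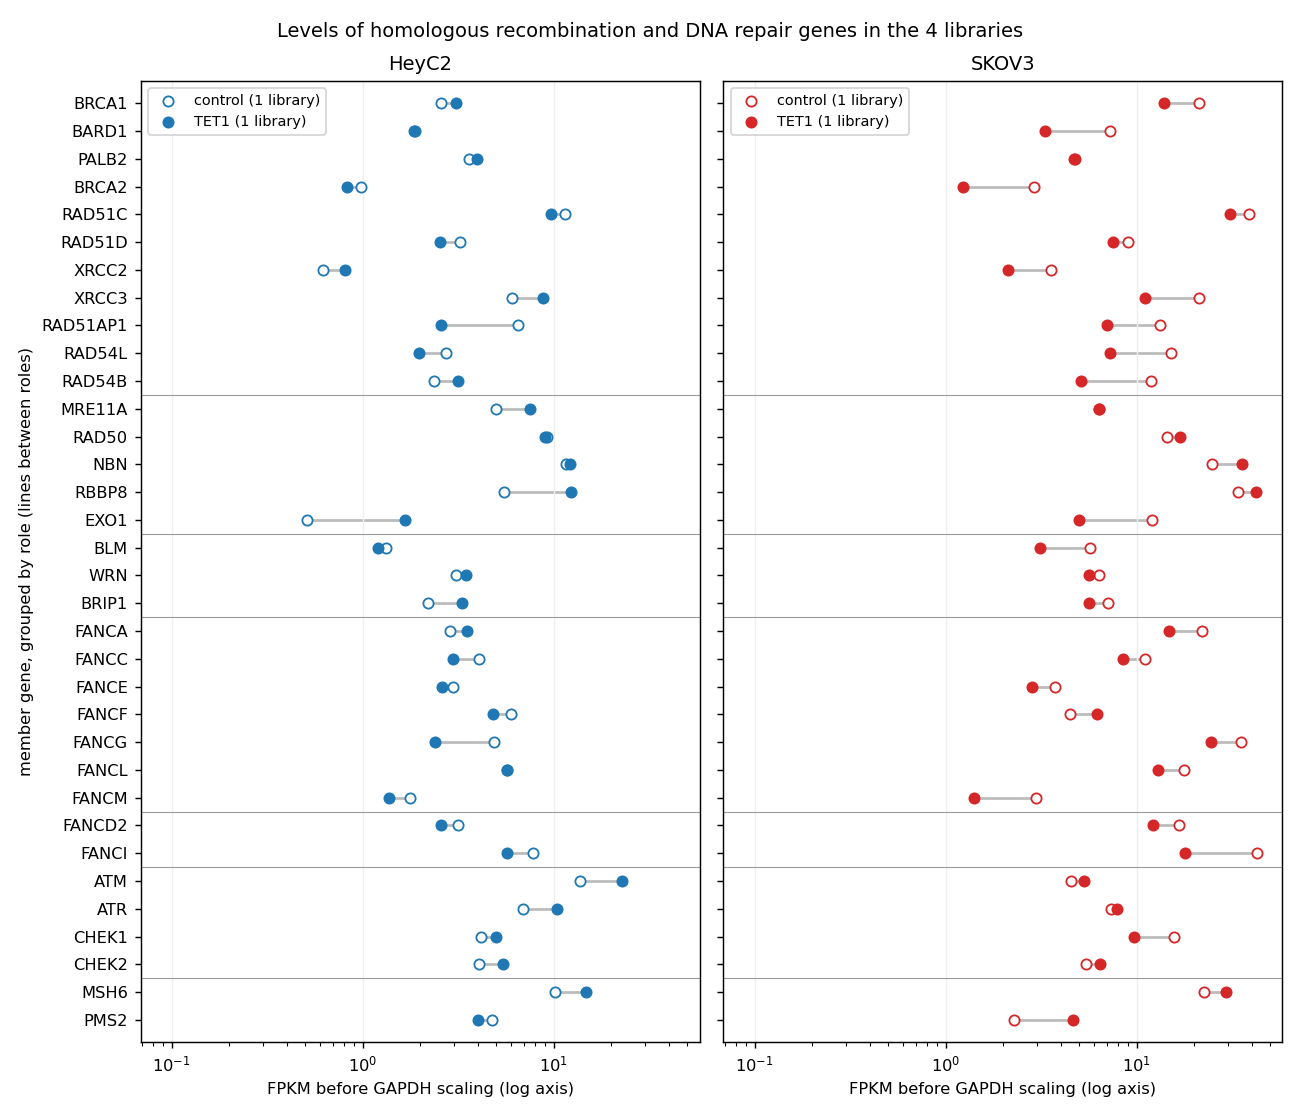
FPKM before GAPDH scaling (horizontal log axis) of the 34 members in each of the 4 libraries, grouped by role; open circles are the control and filled circles the TET1 library. In SKOV3 the filled circle lies left of the open one for most strand exchange and Fanconi anaemia genes, such as BRCA1 (21.20 and 13.97) and FANCI (42.65 and 17.90), and HeyC2 levels are lower throughout for most of these genes.

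Of the 5 end resection members, RBBP8 and EXO1 were higher in HeyC2 and none was lower, with a median of 0.46, and EXO1 passed the filter there only through the TET1 library. In SKOV3 1 was lower, none was higher and the median was 0.03. RBBP8 (CtIP, chr18:20378224-20606451), which starts the trimming of a break together with the MRE11A complex, went from 5.51 to 12.30 FPKM in HeyC2. Relative to all genes, on the log2(FPKM + 1) scale, this was a 1.96-fold increase (0.97, SE 0.16). It was the highest change of any member in HeyC2, where 95.6% of genes tested lay lower. In SKOV3, RBBP8 was at 33.92 and 42.24 FPKM (0.12, SE 0.07). The 3 subunits of the MRE11A-RAD50-NBN complex stayed within 1.5-fold in both lines. MRE11A changed by 0.46 in HeyC2 and -0.20 in SKOV3, RAD50 by -0.08 and 0.03, and NBN by 0.01 and 0.31.

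EXO1 (chr1:242011269-242058450), the exonuclease of long-range resection and of mismatch repair, was the only member past 1.5-fold in opposite directions. It went from 11.97 to 5.02 FPKM in SKOV3, a 2.46-fold decrease (-1.30, SE 0.16). In HeyC2 it went from 0.51 to 1.66 FPKM, a 1.69-fold increase on the log2(FPKM + 1) scale (0.76, SE 0.48), from an estimated 12 and 37 fragments. The HeyC2 control level was the lowest of any member in any library, and the estimate has a large counting error. EXO1 passed the filter in HeyC2 only through the TET1 library, so the filter fixed its direction there. With a pseudocount of 5 the HeyC2 change was 0.23 and no longer past 1.5-fold.

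Of the 3 repair helicases, 1 was lower in SKOV3 (median -0.49) and none was called in HeyC2 (median 0.08). BLM, which dissolves joined DNA molecules, was at 5.70 and 3.13 FPKM in SKOV3 (-0.89, SE 0.17) and at 1.33 and 1.2 in HeyC2 (-0.14). WRN changed by -0.33 in SKOV3 and 0.08 in HeyC2. BRIP1, the helicase bound by BRCA1, changed by -0.49 in SKOV3 and 0.38 in HeyC2. All 3 lay below the all-gene median in SKOV3, 2 of them within 1.5-fold.

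The 7 members of the Fanconi anaemia core complex and its anchor together ubiquitinate FANCD2 and FANCI at a crosslink. In SKOV3, 4 of the 7 were lower, none was higher, and the median was -0.62. On the upper-quartile scale only FANCM remained lower, 1 of 7 (median -0.44), and with a pseudocount of 5 none did. In HeyC2, 1 of 7 was lower, none was higher, and the median was -0.28, with 6 of 7 below the all-gene median. FANCG (chr9:35073832-35080001) was the only one lower in both lines. It was at 34.99 and 24.58 FPKM in SKOV3 (-0.68, SE 0.09) and at 4.84 and 2.39 in HeyC2, a 1.79-fold decrease (-0.84, SE 0.28) from an estimated 85 and 38 fragments.

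FANCM (chr14:45605133-45670093), the translocase that anchors the complex on DNA, was at 2.96 and 1.40 FPKM in SKOV3. Relative to all genes, on the log2(FPKM + 1) scale, this was a 1.89-fold decrease (-0.92, SE 0.21). FANCM was at 1.76 and 1.37 FPKM in HeyC2 (-0.28, SE 0.24). FANCA changed by -0.73 in SKOV3 and 0.17 in HeyC2, and FANCL, the ubiquitin ligase subunit, by -0.62 and -0.05. The scaffold subunits FANCC (-0.53), FANCE (-0.49) and FANCF (0.19) were within 1.5-fold in SKOV3. FANCF, at 4.49 and 6.17 FPKM, was the only member of the complex above the all-gene median there.

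Both proteins of the ID2 complex, the substrate that the core complex marks, were lower in SKOV3 and within 1.5-fold in HeyC2. The call of FANCD2 was lost on the upper-quartile scale (-0.44), that of FANCI was not (-1.22). FANCI (chr15:89787176-89860492, 38 exons) had the highest mean control level of the members, 25.20 FPKM, and the lowest change of any member in SKOV3. It went from 42.65 to 17.90 FPKM, a 2.64-fold decrease (-1.40, SE 0.07), with 2.6% of genes tested lower. In HeyC2, FANCI was at 7.75 and 5.69 FPKM (-0.45, SE 0.14). Its partner FANCD2 was at 16.72 and 12.15 FPKM in SKOV3 (-0.62, SE 0.09) and at 3.16 and 2.57 in HeyC2 (-0.28). The pair of genes thus shared the direction in each line, with the larger change in FANCI.

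Among the checkpoint kinases, calls were few. In SKOV3, 1 of 4 was lower and none was higher (median -0.06), and in HeyC2 1 was higher and none was lower (median 0.38). ATM (chr11:108093771-108239829, 63 exons), the kinase that answers to double-strand breaks, went from 13.68 to 22.79 FPKM in HeyC2, a 1.56-fold increase (0.64, SE 0.05) from an estimated 1275 and 1976 fragments. In SKOV3 it was at 4.55 and 5.32 FPKM, at the all-gene median. ATR (chr3:142167849-142297575), which answers to stalled replication forks, was at 6.92 and 10.35 FPKM in HeyC2 (0.46, SE 0.09) and at 7.38 and 7.85 in SKOV3 (-0.11, SE 0.10). Both upstream kinases lay above the median in HeyC2, ATM past 1.5-fold and ATR within it.

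CHEK1 (chr11:125495058-125546150), the kinase activated by ATR, was the only checkpoint kinase lower in SKOV3. It was at 15.68 and 9.72 FPKM there, a 1.78-fold decrease (-0.83, SE 0.11), and at 4.14 and 4.96 in HeyC2 (0.16, SE 0.18). CHEK2 (chr22:29083731-29138410), the kinase activated by ATM, was at 5.43 and 6.42 FPKM in SKOV3 (0.01, SE 0.25) and at 4.06 and 5.45 in HeyC2 (0.29, SE 0.27). CHEK2 was within 1.5-fold in both lines.

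The mismatch repair members MSH6 and PMS2 were not lower in either line. MSH6, which recognises a mispaired base, was within 1.5-fold in both (0.17 in SKOV3 and 0.44 in HeyC2). PMS2, which nicks the mispaired strand, was the only member higher in SKOV3, at 2.28 and 4.62 FPKM (0.59, SE 0.20), just past 1.5-fold. The call was lost when changes were corrected for GC content and transcript length. PMS2 was at 4.76 and 4.0 FPKM in HeyC2 (-0.26).

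Levels also differed between the control libraries of the 2 lines. Relative to the all-gene median of 0.27 (SKOV3 minus HeyC2), 23 of the 34 members were at least 1.5-fold higher in the SKOV3 control and 3 were lower. Of the 12488 genes tested, 28.6% were higher and 29.0% lower. The median difference of the members was 1.03, and it was 1.27 for strand exchange, where 10 of 11 were higher. The S phase markers (median 1.82, 18 of 18 higher) and the G2 and mitosis markers (1.69, 18 of 18) were likewise higher in the SKOV3 control. EXO1 differed most, 23.5-fold in FPKM (11.97 against 0.51). The 3 members that were lower in SKOV3 were ATM (4.55 against 13.68), PMS2 (2.28 against 4.76) and FANCF (4.49 against 5.95). After TET1, the summed level of the members was 379.0 FPKM in SKOV3, from 473.0, and 184.0 in HeyC2, from 163.0, so SKOV3 still held the higher sum.

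Other genes of the same pathways had been listed alongside the members. Of 26 further homologous recombination genes tested in SKOV3, 13 were lower and 2 higher (median -0.59), and of 25 in HeyC2, 3 were lower and 1 was higher (median -0.04). ZSWIM7, part of the Shu complex that assists recombination, had the highest change of that list in SKOV3, from 1.35 to 5.91 FPKM (1.36). Among 24 other genes of checkpoint and break signalling in SKOV3, 12 were lower and 3 higher (median -0.51), with CLSPN, the adaptor between ATR and CHEK1, lowest at -1.89 and BRE, a subunit of the BRCA1-A complex, highest at 1.31. In HeyC2, 1 of 23 was lower and 3 were higher (median 0.04), the lowest being the phosphatase CDC25C (-1.58) and the highest the ATR activator ETAA1 (0.77). CDC25C passed the filter there only through the control library, so the filter fixed its direction.

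For the other Fanconi anaemia genes, 3 of 7 were lower and 1 was higher in SKOV3 (median -0.36), and 1 of 6 was lower in HeyC2 (median 0.06). UBE2T, the ubiquitin-conjugating enzyme that works with FANCL, had the lowest change in HeyC2 (-0.76) and was at -1.19 in SKOV3, where FANCB was lowest (-1.20). FANCB, 1 of the 3 called lower, passed the filter there only through the control library, so the filter fixed its direction. In SKOV3, repair pathways outside recombination also held lower genes, beside 18.2% lower and 20.7% higher of all genes tested. Of non-homologous end joining, 3 of 9 genes were lower and 0 higher (median -0.30), and of the other mismatch repair genes 2 of 5 and 0 (-0.28). Of base excision and single-strand break repair, 6 of 21 were lower and 1 was higher (-0.31). Of nucleotide excision repair, 5 of 23 were lower, near the share of all genes, and 1 was higher (-0.18). In HeyC2 the medians of these lists lay between -0.08 and -0.01. The lowest changes in SKOV3 were those of PRKDC, the end-joining kinase (-1.69), and FEN1, the flap endonuclease (-1.74). The highest was that of the glycosylase NEIL1 (1.71), from 1.58 to 8.62 FPKM. NEIL1 also had the highest change in HeyC2 (1.05), from 0.88 to 3.04 FPKM. It passed the filter there only through the TET1 library.

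**Figure D4:**
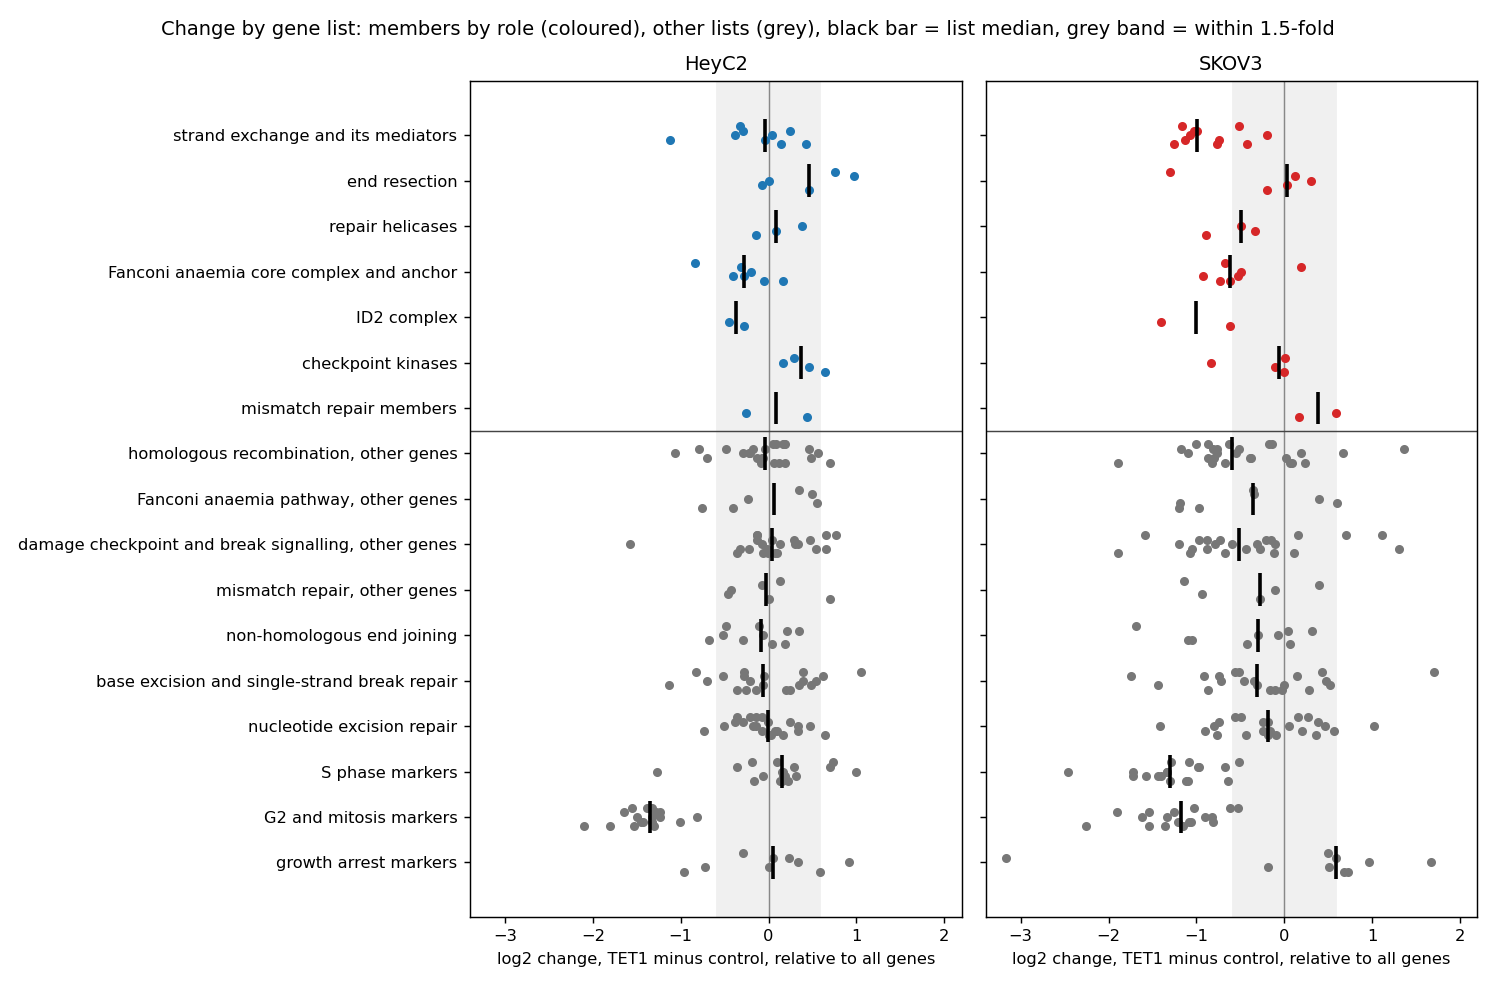
Log2 change of TET1 minus control relative to all genes (horizontal axis) for each gene tested, by list, in HeyC2 and SKOV3; members are coloured by line and placed by role, other lists are grey, black bars are medians and the grey band is the range within 1.5-fold. In SKOV3 strand exchange (-0.99) and the ID2 complex (-1.01) lie between the other repair lists and the S phase markers (-1.29), and in HeyC2 the G2 and mitosis markers (-1.36) lie farthest from 0.

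Markers of the cell cycle moved with some roles of the members in SKOV3. The medians of end resection (0.03), the checkpoint kinases (-0.06) and the mismatch repair members (0.38) did not move with them. Of 18 S phase markers, 17 were lower and none higher in SKOV3 (median -1.29), and their summed level went from 1030 to 473.0 FPKM. In HeyC2, 1 of the 18 was lower and 3 were higher (median 0.16), with sums of 243.0 and 262.0. The G2 and mitosis markers were lower in both lines, 17 of 18 in SKOV3 (median -1.18, sums of 1610 and 746.0) and 18 of 18 in HeyC2 (median -1.36, sums of 364.0 and 135.0). Of these, CENPE passed the filter in HeyC2 only through the control library. In SKOV3 the median was -0.99 for strand exchange and -1.01 for the ID2 complex of 2 genes. It was -0.62 for the Fanconi anaemia core complex and -0.49 for the repair helicases. In HeyC2 these medians were -0.04, -0.36, -0.28 and 0.08, between those of the S phase markers and the mitosis markers. Growth arrest markers were mixed, with 5 of 9 higher and 1 lower in SKOV3 (median 0.59) and 2 higher and 2 lower in HeyC2 (0.05). The part of the cell cycle in the members' changes was not tested. In bulk RNA, fewer cells in a phase and less RNA of a gene per cell cannot be told apart.

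Some markers of cell type also differed between the arms. In SKOV3, KRT7 went from 1537.20 to 21.96 FPKM and KRT19 from 255.14 to 0.46, while KRT8, KRT18 and EPCAM stayed within 1.5-fold and CDH1 went from 2.24 to 6.30. The 6 epithelial markers summed to 2560 and 1070 FPKM in SKOV3 (control, then TET1) and to 1140 and 1890 in HeyC2. The 4 fibroblast markers summed to 1.04 and 34.1 FPKM in SKOV3 and to 0.60 and 1.87 in HeyC2. In SKOV3, COL1A1 was at 0.32 and 27.66, LUM at 0.51 and 4.32, COL1A2 at 0.13 and 2.12, and DCN at 0.08 and 0. COL1A1, LUM and COL1A2 passed the filter there only through the TET1 library, so the filter fixed their direction. The endothelial markers summed to 19.4 and 94.8 FPKM in HeyC2, nearly all of it CDH5, with PECAM1 at most 0.09. The 4 ovarian and Muellerian markers summed to 84.9 and 132.0 FPKM in SKOV3 and to 175.0 and 272.0 in HeyC2. Most of this sum was PAX8 (74.59 and 131.08 in SKOV3), while MSLN went from 10.29 to 0.08 FPKM in SKOV3 and the median change of the list there was -1.48. The leukocyte markers summed to at most 2.84 FPKM in any library with CD3E at 0, and both erythroid markers were at 0. The part of these differences in the members' changes was not tested.

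Several members may share reads with other genes, and their values are uncertain to that extent. No reads were examined, and the annotation used for the deposited values is not given. The reference annotation names pseudogenes after 7 members, 12 of them after PMS2 and 7 after CHEK2, with 1 each for BRCA1, RAD51AP1, MRE11A, RBBP8 and FANCD2. In 8 members, exons overlap those of another protein-coding gene. The overlap is on the opposite strand for RAD54L, FANCA, FANCL, FANCI and MSH6, where counting without strand cannot separate the pair, and on the same strand for RAD51D, RAD50 and FANCG. Among the members at least 2-fold lower in SKOV3, this overlap concerns FANCI (431 bases shared with POLG) and RAD54L (566 with LRRC41), and the pseudogene concerns RAD51AP1.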

How the data were processed

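The authors prepared 4 TruSeq libraries, sequenced them in pairs on a HiSeq-4000, aligned the reads to hg19 with Bowtie2 2.2.6 and deposited FPKM made with RSEM 1.2.17, 1 table per cell line. The annotation, filters and read totals are not given in the sources used here. The deposited FPKM of both TET1 libraries show a further step, found from the values: all 1220 (HeyC2) and 2637 (SKOV3) distinct values below 40 FPKM lay on multiples of 0.01 times a constant, and GAPDH equalled its control (5417.35 and 2248.44 FPKM). This constant was divided out, which put GAPDH at 1675 and 1671 FPKM in TET1, so that the pseudocount acts on 1 scale.

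Changes of log2(FPKM + 1) were centred on the median of genes averaging 1 FPKM or more in the line, and called at 1.5-fold. Depth was estimated from the steps of low values. No test was run, since each group has 1 library. Factor, calls and depth were tested on simulated data. The members and lists were chosen with earlier results of these data known. All members are accounted for by role. Those described in full are members 2-fold changed in either line or called in opposite directions, the 3 highest and 3 lowest by mean control level, and BRCA1, BRCA2, ATM, ATR, CHEK1 and CHEK2, with other genes named for the highest or lowest change of a list. Some genes of these lists are counted but not reported here by name. The single cell type markers were named after their values were seen. C17orf70 and C19orf40 were listed but not matched. Coordinates, exons and lengths came from GENCODE on GRCh37, with 23921 of 26506 symbols matched. Alternatives were pseudocounts of 0.1 and 5, no filter, a mean FPKM of at least 5, the deposited scale, TPM, upper-quartile scaling, other folds, and a correction for GC content and length in 20 bins (97.7% and 97.5% of genes tested had both). Python 3.11.15, numpy 2.4.6, pandas 2.3.3, scipy 1.17.1 and matplotlib 3.10.9 were used. The calls by role and by motif on other scales were added after the data were seen.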

Additional observations from a re-analysis of the deposited data

Results flagged for a closer look

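EXO1 had opposite changes in the 2 lines under the same contrast: the log2 change in SKOV3 minus that in HeyC2 was -2.06 (-1.30 against 0.76). Each value rests on 1 library per group, and this difference was not tested. The HeyC2 control value of EXO1 rests on an estimated 12 fragments. EXO1 passed the filter in HeyC2 only through the TET1 library, so the filter fixed its direction there.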

How the results depend on the processing

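No paired analysis was possible because each group has 1 library, so the groups compared within a line share fewer than 2 replicate numbers. A fit over both lines with the line as a block was not run. No library could be left out, since a group would then be empty. No p-value was computed under any setting. The median change of the members in SKOV3 was below 0 in 9 of 10 settings other than the reported one, and its direction in HeyC2 was not stable around 0. With the values as deposited and no all-gene reference, the median was 1.56 in HeyC2 and 0.00 in SKOV3, the lower calls were 0 and 4 and the higher calls 32 and 6, 0 members were lower in both lines, and RAD51AP1 (0.32) and FANCG (0.58) turned upward in HeyC2. On that scale the constant of the line raises the TET1 value of every gene. Keeping the deposited scale but subtracting the median gave 5 lower in HeyC2, 5 in both lines and 0 higher in SKOV3. Before the GAPDH scaling and without the median, 11 were lower in SKOV3 and 1 in both lines, and upper-quartile scaling gave the same counts, 11 and 1. A pseudocount of 5 gave 1 lower and 1 higher in HeyC2, 9 lower and 0 higher in SKOV3, and 1 in both. With a mean FPKM of at least 5, 0 were lower in HeyC2, 11 lower and 0 higher in SKOV3, and 0 in both. At 1.2-fold, 10 were lower and 9 higher in HeyC2, 2 higher in SKOV3 and 9 lower in both, and at 2-fold 1 was lower and 0 higher in HeyC2, 7 lower and 0 higher in SKOV3, and 1 in both. By role, chosen after seeing the data, the Fanconi anaemia core complex and the ID2 complex each had 1 lower in SKOV3 on the upper-quartile scale and without the median, and 0 and 1 with a pseudocount of 5, when 0 helicases were lower. Of members with the E2F-type motif 6 were lower under each of these settings, and of those without it 1 with a pseudocount of 5. Correction for GC content and length gave 0 higher in SKOV3. As TPM the median levels were 8.40 and 6.89 in HeyC2 (FPKM 4.05 and 3.48) and 24.19 and 15.63 in SKOV3 (FPKM 11.44 and 7.12), since TPM gives every library the same sum. Of the values for single members and lists, 800 stayed the same and 164 moved under an alternative. Genes near 1 FPKM rest on few fragments at this depth.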
